A study of Mus musculus with 22 samples.

Results

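The immediate early genes Fos, Fosb, Jun, Junb, Egr1, Egr2, Ier2, Ier3, Atf3 and Dusp1 were followed in mouse back skin on 22 single-colour oligonucleotide arrays. The rule took them by name, as every probe set that the platform annotation pairs with exactly 1 of these 10 genes; the set itself was chosen with earlier results of these data known. This gave 15 probe sets of the 12422 on the array that are not controls. Of the 15, 11 were bright enough to be tested, at least 1 for each gene, among 6211 probe sets tested in all. All mice were of the CB6F1 strain. The transgenic mice expressed DN-CLIM from the keratin 14 promoter, which is active in basal keratinocytes; DN-CLIM acts as a dominant negative on CLIM proteins, the Ldb cofactors of LIM domain factors. The wild-type mice were their littermates. Each genotype had 5 arrays at postnatal day 6 (P6), 3 at P14 and 3 at P23. By the design text, hair follicles first grow at the earlier ages and rest, in telogen, at P23. Whether each array holds RNA of 1 mouse is not stated, so p-values measure the spread between arrays. The whole skin was used, and a change in the number of cells of a type cannot be told apart from a change in RNA per cell.

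Immediate early genes are transcribed within minutes of a stimulus such as a growth factor, stretch or wounding, without new protein synthesis, and their messages are short-lived. Fos, Fosb, Jun and Junb encode subunits of the transcription factor AP-1, in which a Jun protein pairs with another Jun protein or with a Fos protein. Egr1 and Egr2 encode zinc finger transcription factors, and Egr2 is also known as Krox20, a marker of cells at the root of the growing hair shaft. Atf3 encodes a stress-induced factor of the ATF/CREB family. Dusp1 encodes a phosphatase that switches off the MAP kinases whose activity induces most of these genes, and its transcription is also raised by glucocorticoids. Ier2 and Ier3 encode small early-response proteins. In skin, AP-1 is known for its part in keratinocyte proliferation and differentiation.

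The regulatory sequence just before the start site is shown for some of the genes that moved in the age comparison. Every sequence printed holds a marked element. The windows of Ier3 and Jun, which held none of those searched, are not printed. The search covered the 250 bases before each start, and elements farther upstream were not looked for. Within these windows the genes differ in elements by which early responses are known to be driven. Sequences are from RefSeq on GRCm38.p6, and entries were matched here for 8 of the 10 genes, and each is written 5′ to 3′. Those of Dusp1, Fos, Atf3 and Junb end at the base before the start, and the Egr2 sequences are 30-base pieces around a CArG box within its windows. For Egr2, distal and proximal give the order on the chromosome only, and the boxes lie in windows of different annotated starts. Capitals mark the cyclic AMP response element TGACGTCA, its TGACG part on either strand, the TATA box TATAAA (searched on the gene's own strand only) and, in Egr2, the CArG box, the element bound by serum response factor.

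Dusp1 (chr17:26508473-26508722, minus strand): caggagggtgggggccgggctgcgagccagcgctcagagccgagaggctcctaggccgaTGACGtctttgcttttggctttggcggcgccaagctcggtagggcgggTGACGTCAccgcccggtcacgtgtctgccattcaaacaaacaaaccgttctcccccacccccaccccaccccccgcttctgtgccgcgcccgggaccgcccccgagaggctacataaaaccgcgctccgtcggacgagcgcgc
Fos (chr12:85473640-85473889, plus strand): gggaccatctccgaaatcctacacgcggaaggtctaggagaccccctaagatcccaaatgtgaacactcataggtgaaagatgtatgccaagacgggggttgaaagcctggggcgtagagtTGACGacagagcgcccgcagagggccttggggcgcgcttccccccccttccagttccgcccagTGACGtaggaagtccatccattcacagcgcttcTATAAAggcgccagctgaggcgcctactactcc
Atf3 (chr1:191183334-191183583, minus strand): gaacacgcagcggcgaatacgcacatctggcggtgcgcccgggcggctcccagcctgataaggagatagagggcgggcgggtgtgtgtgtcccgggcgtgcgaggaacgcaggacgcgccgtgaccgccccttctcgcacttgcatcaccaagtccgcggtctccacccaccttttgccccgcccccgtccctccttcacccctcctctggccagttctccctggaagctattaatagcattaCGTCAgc
Junb (chr8:84978749-84978998, minus strand): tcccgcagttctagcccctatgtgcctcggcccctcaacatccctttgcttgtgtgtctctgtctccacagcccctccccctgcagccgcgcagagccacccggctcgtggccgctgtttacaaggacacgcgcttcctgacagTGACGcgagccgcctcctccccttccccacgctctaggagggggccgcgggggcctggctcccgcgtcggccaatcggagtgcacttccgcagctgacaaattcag
Egr2 distal site (chr10:67537484-67537513, plus strand): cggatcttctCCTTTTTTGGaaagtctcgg
Egr2 proximal site (chr10:67537787-67537816, plus strand): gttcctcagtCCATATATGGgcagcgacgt

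Dusp1 had the whole element TGACGTCA, which is in 1.55% of the 32851 promoter windows searched on both strands. The shorter TGACG, which every TGACGTCA also contains, was in 17.8% of windows, among them those of Dusp1, Fos, Atf3, Fosb and Junb, and 3 of the 5 Egr2 entries, but not those of Jun and Ier3. In the Atf3 window it lies on the opposite strand and reads CGTCA. The CArG box was in 1.47% of windows and in 4 of the 5 Egr2 entries, some of which overlap and hold the same proximal box. TATAAA stood in 7.59% of windows and in the Fos window. The AP-1 site TGANTCA was in 6.75% of windows and in none of those printed. A match describes letters and is not evidence of binding. An element absent from a window may lie farther upstream, so the windows do not show which genes lack it.

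From P14 to P23 the genes split. In wild-type skin Dusp1 rose 5.05-fold, Fos 2.06-fold and Atf3 1.63-fold, while Junb, Egr1, Egr2, Ier3 and Ier2 fell and Jun and Fosb did not pass the test. In DN-CLIM skin Dusp1 rose 5.39-fold, Fos 3.54-fold and Atf3 1.36-fold, and Junb, Egr1, Egr2 and Ier3 fell. A probe set passed where limma's p, adjusted by Benjamini-Hochberg over the 6211 probe sets tested, was under 0.05. In wild-type skin 9 of the 11 tested probe sets passed, 3 higher and 6 lower, against 54.2% of all tested probe sets (27% higher and 27.1% lower). In DN-CLIM skin 8 of 11 passed, 3 higher and 5 lower, against 54.3% (27.1% higher and 27.2% lower). The arrays of the 2 ages did not overlap for 9 of 11 probe sets in each genotype, against 66% and 66.3% of all tested. Most of the probe sets tested moved between these ages. The share of the 11 that moved was above that background, but whether so few probe sets exceed it was not tested. The directions and sizes are what the values describe. The median difference of the 11 was -0.69 in wild-type and -0.38 in DN-CLIM skin on the log2 scale.

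**Figure D1:**
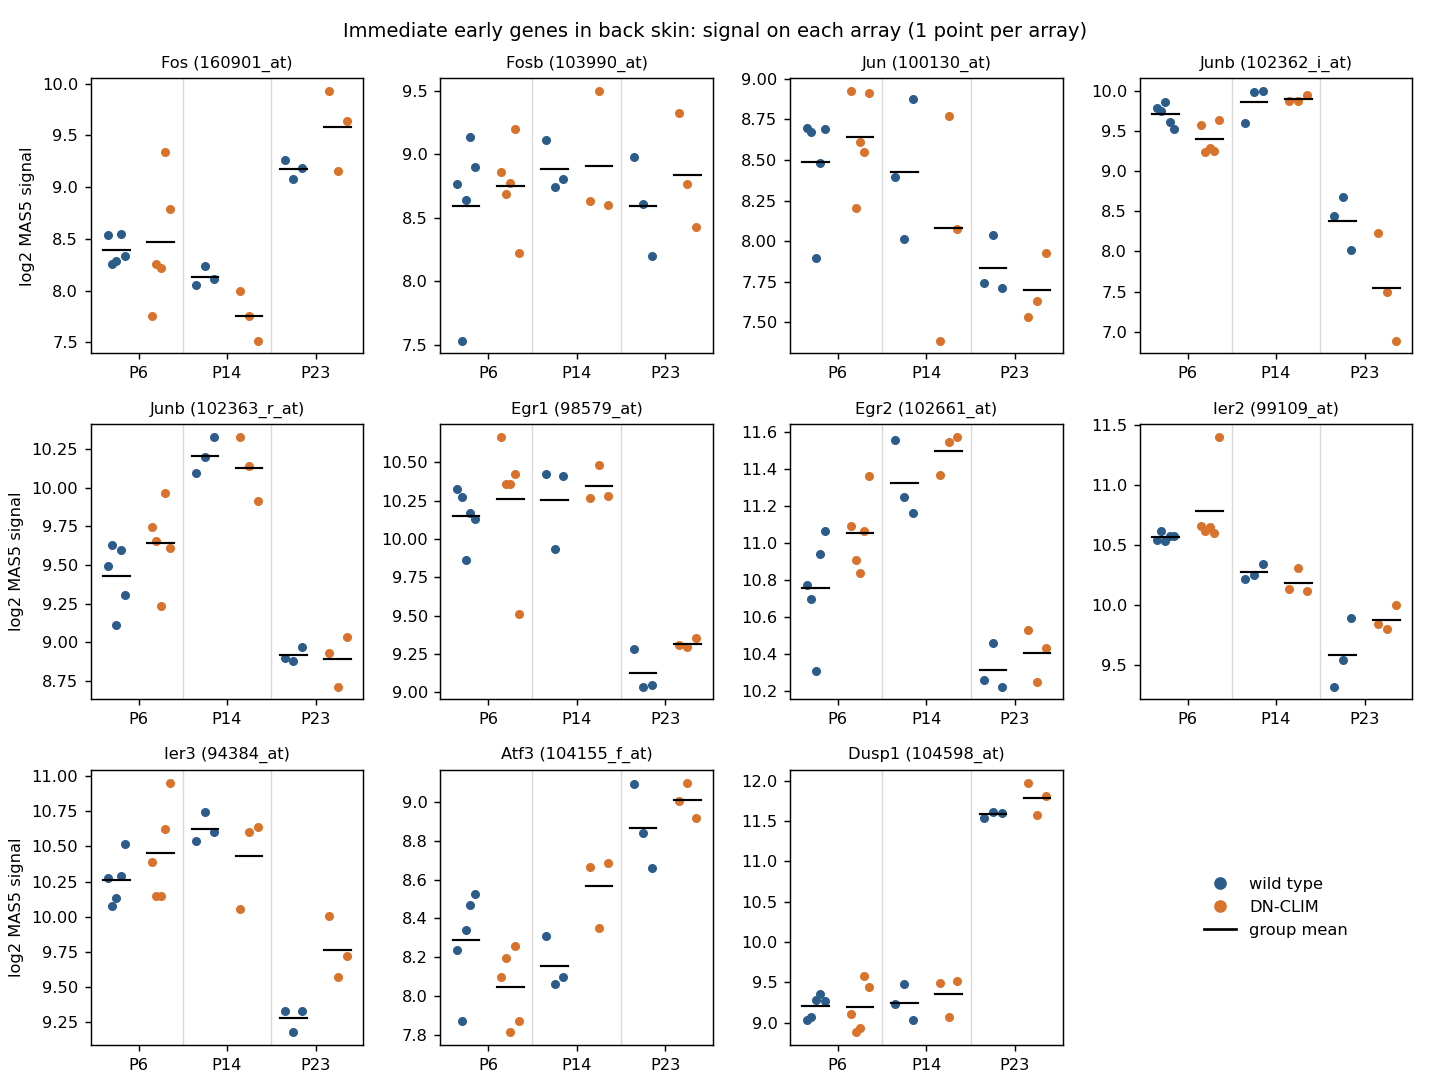
Log2 signal (MAS5) of the 11 tested probe sets on each array, by age on the horizontal axis, with wild-type arrays in blue, DN-CLIM arrays in orange and a black line at each group mean. Dusp1 is at 9.03 to 9.52 at P14 and at 11.54 to 11.98 at P23, whereas both Junb probe sets, Egr1 and Egr2 are lowest at P23.

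Dusp1, the MAP kinase phosphatase, had the clearest change. Its log2 signal at P14 was 9.23, 9.48 and 9.03 on the wild-type arrays and 9.49, 9.07 and 9.52 on the DN-CLIM arrays. At P23 it was 11.54, 11.62 and 11.60 in wild-type and 11.98, 11.57 and 11.81 in DN-CLIM skin. Every P23 array was far above every P14 array and every P6 array, the highest of which was at 9.58. The difference from P14 to P23 was 2.34 (SE 0.17, limma adjusted p = 2.1e-10) in wild-type and 2.43 (SE 0.17, limma adjusted p = 1.2e-10) in DN-CLIM skin. At P6 the means were 9.20 ± 0.14 (SD, n = 5) and 9.19 ± 0.31 (SD, n = 5), close to those at P14.

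Fos, the AP-1 subunit most often used to mark recent stimulation, was low at P14 and high at P23. The wild-type arrays read 8.05, 8.24 and 8.12 at P14, then 9.27, 9.08 and 9.19 at P23. The DN-CLIM arrays read 7.99, 7.76 and 7.51 at P14, then 9.93, 9.16 and 9.64 at P23. The groups of the 2 ages did not overlap in either genotype. The log2 difference was 1.04 (SE 0.27, limma adjusted p = 0.0024) in wild-type and 1.82 (SE 0.27, limma adjusted p = 6.5e-06) in DN-CLIM skin.

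Atf3, the stress-induced factor, changed less. Its tested probe set, of the f_at type whose probes can match a family of related sequences, was at 8.31, 8.06 and 8.10 in wild-type skin at P14 and at 9.09, 8.84 and 8.66 at P23. DN-CLIM skin gave 8.66, 8.35 and 8.68 at P14, then 9.01, 9.10 and 8.92 at P23. The ages were separate in each genotype, with a narrower gap in DN-CLIM skin. The difference was 0.71 (SE 0.17, limma adjusted p = 0.0017) in wild-type and 0.44 (SE 0.17, limma adjusted p = 0.037) in DN-CLIM skin. The DN-CLIM call was lost in 4 of the 6 runs that left out 1 array, with adjusted p up to 0.156.

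Junb, the AP-1 subunit known as a brake on keratinocyte and myeloid proliferation, went the opposite way to Fos. It has an i_at probe set, a type with fewer unique probes than usual, and an r_at set, for which rules of probe choice were relaxed. The i_at set read 9.60, 9.98 and 9.996 in wild-type skin at P14 and 8.44, 8.68 and 8.02 at P23. In DN-CLIM skin it read 9.87, 9.87 and 9.94 at P14 and 8.23, 7.50 and 6.89 at P23. At P23 the DN-CLIM arrays were spread widely, with an SD of 0.67 against 0.33 in wild-type skin. The difference was -1.48 (SE 0.23, limma adjusted p = 1.1e-05) in wild-type and -2.36 (SE 0.23, limma adjusted p = 1.6e-08) in DN-CLIM skin.

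The Junb r_at set moved in the same direction by a more even amount. It went from 10.21 ± 0.12 to 8.92 ± 0.05 in wild-type skin (SD, n = 3 each) and from 10.12 ± 0.21 to 8.89 ± 0.16 in DN-CLIM skin (SD, n = 3 each). The fall was 1.29 (SE 0.16) and 1.23 (SE 0.16), with limma adjusted p = 7.2e-07 and 1.5e-06. Both Junb probe sets therefore gave a lower level at P23 in both genotypes.

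Jun, which pairs with Fos proteins in AP-1, did not pass between these ages. Wild-type arrays were at 8.39, 8.02 and 8.87 at P14 and 7.75, 8.04 and 7.71 at P23. DN-CLIM arrays were at 7.39, 8.77 and 8.08 at P14, then 7.54, 7.63 and 7.93 at P23. The ages overlapped in both genotypes. The difference in wild-type skin was -0.60 (95% interval -1.19 to 0.00, limma adjusted p = 0.085) and in DN-CLIM skin -0.38 (-0.98 to 0.22, limma adjusted p = 0.27).

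Fosb passed in none of the comparisons made. Its group means lay between 8.60 and 8.91, with SDs of 0.20 to 0.62. From P14 to P23 the difference was -0.29 (95% interval -0.99 to 0.40) in wild-type and -0.07 (-0.77 to 0.62) in DN-CLIM skin, and a fall as large as that of Ier2 in wild-type skin (0.69) lay inside both intervals. Among the AP-1 genes of this set, Fos was thus higher, Junb lower, and Jun and Fosb without a call at P23 against P14.

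Egr1 was lower at P23. Wild-type skin gave 10.42, 9.94 and 10.41 at P14 and 9.28, 9.04 and 9.05 at P23. DN-CLIM skin gave 10.27, 10.48 and 10.28 at P14 and 9.31, 9.29 and 9.36 at P23. All P23 arrays were below all P14 arrays, and the 3 DN-CLIM arrays at P23 were close together. The fall was 1.14 (SE 0.20, limma adjusted p = 5.9e-05) in wild-type and 1.03 (SE 0.20, limma adjusted p = 0.00018) in DN-CLIM skin.

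Egr2, the Krox20 factor, peaked at P14. Its arrays read 11.55, 11.25 and 11.16 in wild-type and 11.37, 11.55 and 11.57 in DN-CLIM skin at P14. At P23 they read 10.26, 10.46 and 10.23 in wild-type and 10.53, 10.25 and 10.44 in DN-CLIM skin. The ages did not overlap. Egr2 fell by 1.01 (SE 0.16, limma adjusted p = 1.7e-05) in wild-type and by 1.09 (SE 0.16, limma adjusted p = 6.2e-06) in DN-CLIM skin.

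Ier3, which is known to modulate cell survival, was at 10.54, 10.74 and 10.60 in wild-type skin at P14 and at 9.33, 9.17 and 9.33 at P23. DN-CLIM skin had 10.06, 10.61 and 10.64 at P14, then 10.002, 9.57 and 9.72 at P23. The gap between the ages was wide in wild-type skin and narrow in DN-CLIM skin, where 1 P14 array at 10.06 lay just above the highest P23 array. Ier3 fell by 1.35 (SE 0.19, limma adjusted p = 2.5e-06) in wild-type and by 0.67 (SE 0.19, limma adjusted p = 0.0043) in DN-CLIM skin.

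Ier2 read 10.22, 10.25 and 10.34 in wild-type skin at P14 and 9.32, 9.54 and 9.89 at P23. DN-CLIM skin gave 10.13, 10.31 and 10.12 at P14, then 9.83, 9.80 and 9.995 at P23. The ages were separate in each genotype. The fall in wild-type skin was 0.69 (SE 0.16, limma adjusted p = 0.0012), and the difference in DN-CLIM skin was -0.31 (SE 0.16, limma adjusted p = 0.12).

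**Figure D2:**
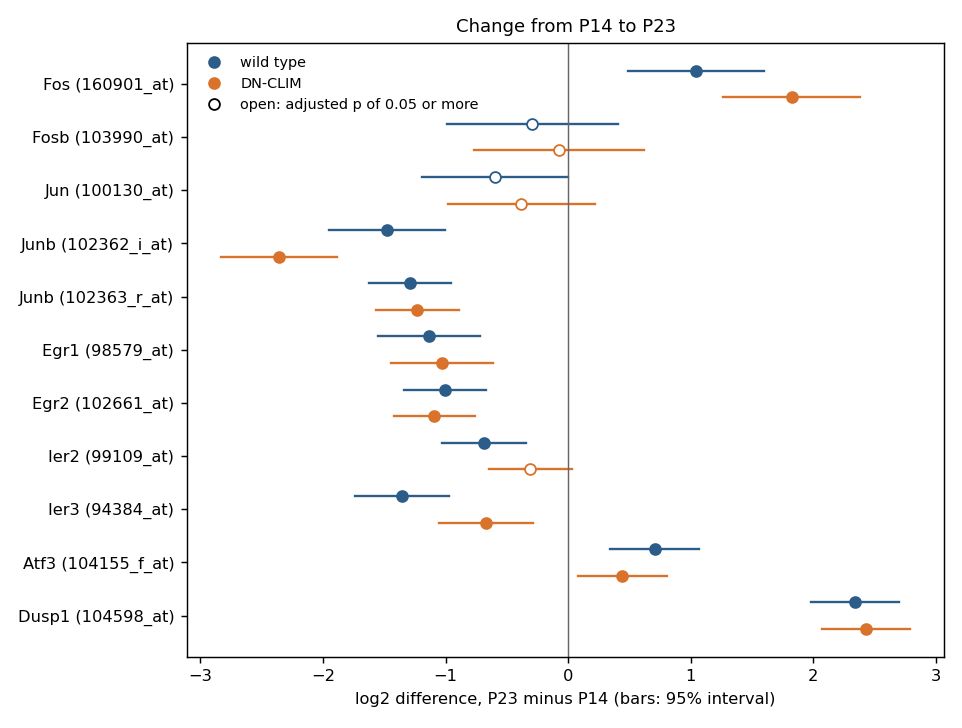
Log2 difference of P23 minus P14 for the 11 tested probe sets, with 95% intervals as bars, in wild-type (blue) and DN-CLIM skin (orange); open points did not pass an adjusted p of 0.05. Dusp1, at 2.34 and 2.43, lies farthest to the right and the Junb i_at set, at -1.48 and -2.36, farthest to the left.

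Wild-type and DN-CLIM skin were measured on separate arrays, so their age changes can be set side by side. All 11 probe sets had the same sign in both genotypes from P14 to P23, against 88.6% of all tested probe sets, and 8 passed in both, against 45.3% of all tested. Between P6 and P23 again 11 of 11 had the same sign, and 10 passed in both, against 45.7%. These comparisons share the P23 arrays. Between P6 and P14, 9 of 11 had the same sign, against 77.2% of all tested, and 2 passed in both, against 14.1%.

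Between P6 and P14, both in hair growth, fewer genes moved. In wild-type skin 2 of 11 probe sets passed, both higher, against 20.8% of all tested (9.43% higher and 11.3% lower). These were the Junb r_at set at 0.78 (SE 0.14, limma adjusted p = 0.00047) and Egr2 at 0.56 (limma adjusted p = 0.0072). In DN-CLIM skin 5 of 11 passed, 3 higher and 2 lower, against 26.8% (12.1% higher and 14.7% lower). The ages did not overlap for 5 probe sets in wild-type and 4 in DN-CLIM skin, against 27.6% and 25.9% of all tested. The same Junb probe set rose by 0.48 (limma adjusted p = 0.017), Egr2 by 0.44 (limma adjusted p = 0.025) and Atf3 by 0.52 (limma adjusted p = 0.017), whereas Fos fell by 0.72 (limma adjusted p = 0.03) and Ier2 by 0.60 (limma adjusted p = 0.0046).

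Single arrays decided several of these smaller calls. The count in DN-CLIM skin ran from 2 to 5 when each array was left out in turn, and was 3 without P14 replicate 1 or 2 and 2 without P14 replicate 3. The count in wild-type skin was 1 without wild-type P14 replicate 1. Egr2 at P6 stood at 10.77, 10.70, 10.31, 10.94 and 11.07 in wild-type and 11.09, 10.91, 10.84, 11.06 and 11.36 in DN-CLIM skin, and all of them were below the P14 arrays of the same genotype. Fos at P6 was tight in wild-type skin, at 8.54, 8.26, 8.29, 8.55 and 8.34. In DN-CLIM skin it ranged widely, at 7.75, 8.26, 8.22, 9.34 and 8.79, so that P6 and P14 overlapped.

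Against P6, the P23 arrays gave 10 of 11 probe sets past the threshold in each genotype, 3 higher and 7 lower. Of all tested probe sets 54% passed in wild-type skin (25.7% higher and 28.3% lower) and 54.8% in DN-CLIM skin (26.7% higher and 28.2% lower). The ages did not overlap for 8 and 9 of the 11, against 52.6% and 51.1%. Dusp1 rose by 2.38 in wild-type and 2.60 in DN-CLIM skin, Fos by 0.78 and 1.10, and the tested Atf3 set by 0.57 and 0.96. The Junb i_at set was at -1.32 and -1.86. Egr1 fell by 1.03 and 0.95, Ier2 by 0.98 and 0.91, and Ier3 by 0.98 and 0.69. Egr2, which had risen in between, fell by 0.44 in wild-type and 0.65 in DN-CLIM skin, and the Junb r_at set fell by 0.51 and 0.75. These P23 arrays are the ones set against P14 above, so the comparisons share them.

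Among the age comparisons, Jun passed in this one with all arrays in the fit. In DN-CLIM skin the P14 minus P6 difference of -0.56 (limma adjusted p = 0.11) was -0.91, and called, without P14 replicate 2 and -0.22, and not called, without P14 replicate 1. It was at 8.70, 8.67, 7.90, 8.48 and 8.69 in wild-type and 8.93, 8.20, 8.61, 8.55 and 8.91 in DN-CLIM skin at P6. From P6 to P23 it fell by 0.65 (limma adjusted p = 0.036) in wild-type and by 0.94 (limma adjusted p = 0.0036) in DN-CLIM skin. The wild-type call was lost in 6 of the 8 runs that left out 1 array, with adjusted p up to 0.111.

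By order of group means of the tested probe sets, Dusp1, Fos and Atf3 were highest in DN-CLIM skin at P23 and next in wild-type skin at P23. For each of these genes the P23 arrays of the genotypes overlapped, so the order between them was not resolved. The Atf3 probe sets too dim for the test had P6 or P14 groups first. Egr1, Egr2, Ier2, Ier3, Jun and both Junb probe sets had P23 of both genotypes in the last places. For Egr1 the other 4 groups had means of 10.15 to 10.34 with SDs of 0.12 to 0.44, so their order was not resolved. Dusp1 at P6 and P14 (9.19 to 9.36, SDs of 0.14 to 0.31) was likewise not ordered. Ier2 in wild-type skin was 10.57 ± 0.04 (SD, n = 5) at P6, 10.27 ± 0.07 (SD, n = 3) at P14 and 9.58 ± 0.29 (SD, n = 3) at P23, and its difference from P6 to P14 did not pass.

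DN-CLIM and wild-type skin were compared at each age to ask whether blocking CLIM in basal keratinocytes changed these genes. No early gene passed at any age. The differences of DN-CLIM minus wild type ran from -0.31 to 0.30 at P6, from -0.38 to 0.41 at P14 and from -0.84 to 0.49 at P23 on the log2 scale. Limma called 0 of 11 at each age and over all ages, against 0.0322% of all tested probe sets at P6, 0.0644% at P14, 0.161% at P23 and 0.177% over all ages. At an unadjusted p under 0.05 there were 1, 1, 2 and 2 of the 11, against 8.18%, 6.26%, 4.57% and 7.02% of all tested probe sets. Very few probe sets of any kind were called between the genotypes.

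A few early genes had genotype groups that did not overlap. At P6 there was none, against 0.95% of all tested probe sets. Atf3 at P14 was 0.41 higher in DN-CLIM skin (95% interval 0.05 to 0.77, limma adjusted p = 0.72), with all 3 DN-CLIM arrays above all 3 wild-type arrays. Fos at P14 was lower in all 3 DN-CLIM arrays, at -0.38 (-0.94 to 0.18, limma adjusted p = 0.89). At P23 Ier3 was higher in all 3 DN-CLIM arrays, at 0.49 (0.10 to 0.87, limma adjusted p = 0.72), and Egr1 also, at 0.20 (-0.22 to 0.61, limma adjusted p = 0.999). Groups without overlap were 2 of 11 at P14 and 2 of 11 at P23, against 15.2% and 14.9% of all tested probe sets.

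Junb gave the largest genotype difference among the 11 probe sets, in 1 of its 2. At P23 the i_at set was at -0.84 (95% interval -1.31 to -0.37, limma adjusted p = 0.30), with 1 DN-CLIM array at 8.23 above the lowest wild-type array at 8.02. The r_at set was at -0.02 (-0.36 to 0.31), an interval that does not reach the value of the first. Without DN-CLIM P23 replicate 1 the first probe set was called, at -1.19 with a limma adjusted p = 0.012 at P23 and at -0.49 with 0.047 over all ages, which made the count of early genes called 1 in each. Without DN-CLIM P23 replicate 3 the difference at P23 was -0.52, with a limma adjusted p = 0.999. Egr2 was slightly higher in DN-CLIM skin, at 0.30 at P6 (0.04 to 0.55, limma adjusted p = 0.56; 0.18 without wild-type P6 replicate 3) and 0.19 over all ages (0.01 to 0.37, limma adjusted p = 0.69).

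**Figure D3:**
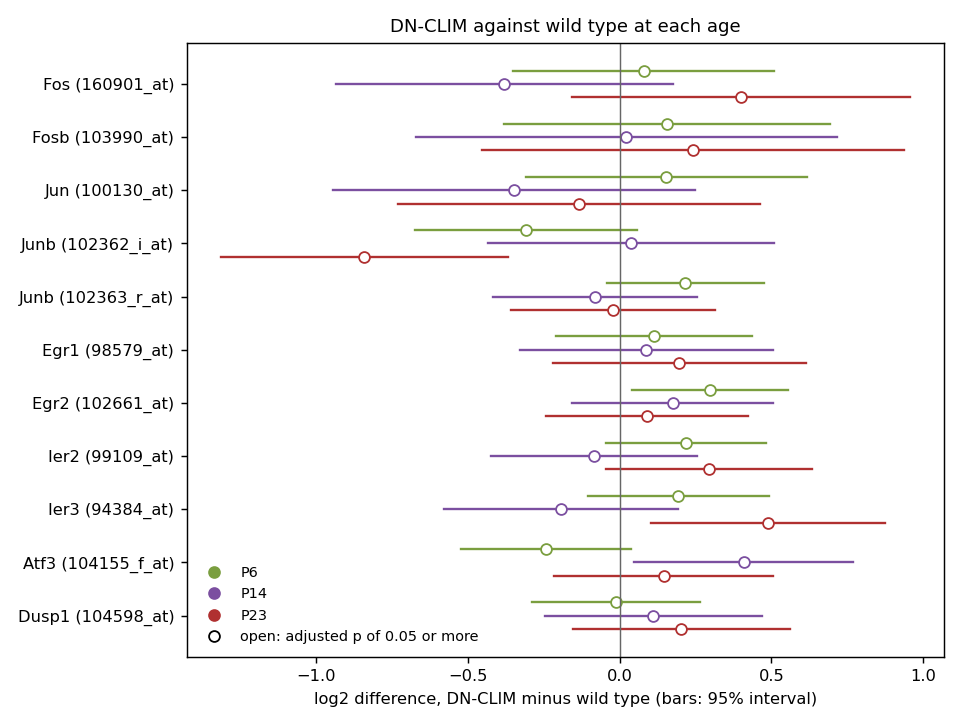
Log2 difference of DN-CLIM minus wild type for the 11 tested probe sets at P6, P14 and P23, with 95% intervals as bars; all points are open because no adjusted p was under 0.05. The points lie between -0.84 (Junb i_at set at P23) and 0.49 (Ier3 at P23).

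The difference between the genotypes in how a gene changed with age was tested directly. Limma called 0 of the 11 probe sets in each of the 3 such comparisons, and 1, 2 and 0 at an unadjusted p under 0.05. Across all tested probe sets 0.0161%, 0% and 0.0161% were called, and 6.70%, 5.10% and 4.88% had an unadjusted p under 0.05. From P6 to P14 Atf3 changed by 0.65 more in DN-CLIM skin (limma adjusted p = 0.68). From P14 to P23 the difference was 0.68 for Ier3 (limma adjusted p = 0.85), 0.78 for Fos (limma adjusted p = 0.97), and -0.88 for the Junb i_at set (limma adjusted p = 0.81), or -0.55 without DN-CLIM P23 replicate 3. A call in 1 genotype and not in the other, as for Ier2 from P14 to P23, is therefore not a shown difference between them.

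Array replicates differed for these genes in places. DN-CLIM P6 replicate 5 had the lowest mean correlation with its own group, at 0.923. The other arrays of that group were at 0.954 to 0.959, and arrays of other groups at up to 0.982. Replicate 5 had Ier2 at 11.40 and Egr1 at 9.51. The other 4 arrays of its group were at 10.59 to 10.66 and 10.36 to 10.67. Without replicate 5 no early gene was called between the genotypes at P6. In DN-CLIM skin 4 of 11 were then called between P6 and P14 and 10 of 11 between P6 and P23. DN-CLIM P23 replicate 2 had 1 of the 11 probe sets above its group mean, and replicates 1 and 3 had 7 each. Over all tested probe sets, the share above the group mean was 49.1% to 53.6% on every array. The median SD of the early genes was 0.31 in DN-CLIM skin at P6, where it was 0.25 over all tested probe sets, and 0.20 against 0.12 in DN-CLIM skin at P23. It was also higher at P14, at 0.20 against 0.14 in wild-type and 0.21 against 0.17 in DN-CLIM skin. Wild-type skin had 0.18 against 0.19 at P6 and 0.14 against 0.15 at P23.

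The 4 remaining probe sets were too dim for the test, and 2 of them belong to Atf3, 1 to Fos and 1 to Egr1. In a fit of all 12422 probe sets they did not always follow the bright probe set of their gene. The brighter of the dim Atf3 sets was lower at P14 than at P6 in DN-CLIM skin, at -1.74 (limma adjusted p = 0.004), where the tested set was higher by 0.52. From P14 to P23 in DN-CLIM skin it was higher by 1.14 (limma adjusted p = 0.044), and the other dim Atf3 set was lower, at -1.13 (limma adjusted p = 0.016). From P6 to P23 both dim Atf3 sets were lower in both genotypes, where the tested set was higher. The brighter of them was at -0.67 in wild-type and -0.60 in DN-CLIM skin, without a call. The other was at -0.73 in wild-type skin, without a call, and at -0.87 in DN-CLIM skin (limma adjusted p = 0.036). The direction of Atf3 with age therefore rests on its bright probe set. The dim Egr1 set was at -2.31 from P14 to P23 in wild-type skin (limma adjusted p = 0.026) and the dim Fos set at 1.77 from P6 to P23 in DN-CLIM skin (limma adjusted p = 0.040), both in the direction of the bright probe set. In other comparisons they went against it, without a call. In DN-CLIM skin the dim Fos set was at 0.93 from P6 to P14, where the bright set fell. The dim Egr1 set was at 0.34 there from P6 to P23, where the bright set fell.

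Some early genes varied together over the 22 arrays and others in opposition, as a description in which the arrays share age. Pearson's r was 0.82 between Dusp1 and Fos and 0.83 between Dusp1 and Atf3. It was 0.87 between Egr2 and the Junb r_at set and 0.83 between Egr2 and Ier3. It was -0.90 between Dusp1 and Egr1 and -0.88 between Dusp1 and the Junb i_at set. Nearest to the mean course of the 11 probe sets, each centred and scaled, were Llgl1 (r = 0.882), Qsox1 (0.877), Znhit2 (0.874), Nadk (0.870) and Rps24 (0.870). That mean joins genes that moved in opposite directions.

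Other early response genes also split by direction from P14 to P23. Of 43 listed, 38 were on the array and 28 were tested. In wild-type skin 12 of the 28 rose, 10 fell and 6 did not pass. In DN-CLIM skin 12 rose, 11 fell and 5 did not pass. Of all tested probe sets 27% were called higher and 27.1% lower in wild-type skin, and 27.1% and 27.2% in DN-CLIM skin.

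Cebpd, a C/EBP factor of acute responses, rose by 2.19 in wild-type and 1.95 in DN-CLIM skin (limma adjusted p = 1.6e-08 and 9.4e-08). Ccn2, a matrix-associated growth factor target, rose by 1.63 and 1.80, Klf6 by 1.24 and 1.39, the clock gene Per1 by 1.11 and 0.99 and the survival gene Mcl1 by 1.03 and 1.12. Plk2, a polo-like kinase, fell by 2.17 and 1.77 (limma adjusted p = 4.6e-11 and 1.5e-09), and the growth arrest gene Gadd45a by 1.92 and 1.48. The ERK phosphatase Dusp6 fell by 1.36 and 1.07, Dusp2, a nuclear phosphatase of the same family, by 1.04 and 1.24, the EGF receptor ligand Hbegf by 1.08 and 0.80, and Plk3 by 0.74 and 0.95. Dusp1 thus rose while Dusp2 and Dusp6 fell.

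**Figure D4:**
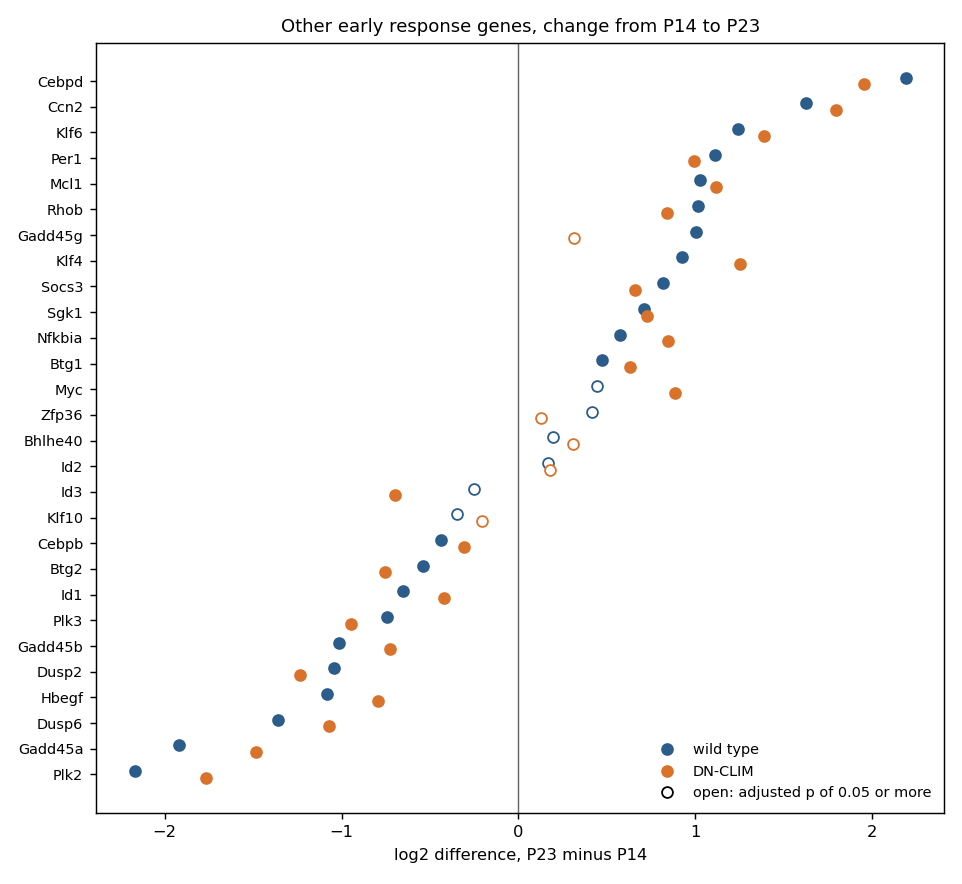
Log2 difference of P23 minus P14 for 28 further early response genes in wild-type (blue) and DN-CLIM skin (orange); open points did not pass an adjusted p of 0.05. Cebpd is at the upper end with 2.19 and 1.95 and Plk2 at the lower end with -2.17 and -1.77.

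Between the genotypes 0 of these 28 passed at any age. The smallest unadjusted p values belonged to Nfkbia at P6 (0.34, limma adjusted p = 0.51), Ccn2 at P14 (-0.57, limma adjusted p = 0.52) and Plk2 at P23 (0.35, limma adjusted p = 0.91). Other AP-1 partners, of which 6 of 15 were tested, gave 2 higher (Atf2 at 1.21 and Atf5 at 0.46) and 2 lower (Jund at -1.05 and Atf4 at -0.57) from P14 to P23 in wild-type skin, where 54.2% of all tested probe sets were called. In DN-CLIM skin, where 54.3% were, Atf2 was higher by 1.33, and Jund and Atf4 were lower, at -0.97 and -0.63. Jund therefore moved with Junb and opposite to Fos.

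A list of 29 genes covered the MAP kinase cascades (ERK, JNK and p38) and serum response factor, and 14 were tested. From P14 to P23, 1 rose and 3 fell in wild-type skin, and 4 rose and 3 fell in DN-CLIM skin. Of all tested probe sets 54.2% and 54.3% were called in either direction. Egfr, the EGF receptor upstream of the ERK cascade, fell by 1.05 and 0.95. The p38 pathway kinase Map2k3 fell by 0.67 and 0.62 and Nras by 0.63 and 0.55. Mapk14, the p38 kinase, rose by 0.27 and 0.54, and in DN-CLIM skin Map2k1 by 0.66, Grb2 by 0.56 and Shc1 by 0.44 also rose. Of the 12 tested of 16 heat shock genes, listed because tissue stress induces them, 3 rose and 2 fell in wild-type skin and 4 rose and 1 fell in DN-CLIM skin, against the same 54.2% and 54.3%. Hspa1b rose by 0.57, Dnaja1 by 0.59 and Hsph1 by 0.52, and Hsp90aa1 fell by 0.99 and Hspa8 by 0.70. In DN-CLIM skin Hspa1b rose by 1.14, Hsph1 by 0.65, Hspa1a by 0.59 and Hspe1 by 0.51, and Hsp90aa1 fell by 0.54. No gene of these 3 lists passed between the genotypes at any age. The smallest p among them was that of Hspa8, a constitutive chaperone, at P23 (0.46 higher in DN-CLIM skin, limma adjusted p = 0.53).

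The make-up of the skin moved with age at the same time. All 6 tested hair follicle keratin markers fell from P14 to P23 in both genotypes. Their summed signal was 178070 to 203817 in wild-type skin at P14 and 1084 to 1571 at P23. In DN-CLIM skin it was 174662 to 209606 at P14 and 1193 to 1251 at P23. Macrophage markers were measured at 7 of 7, and 6 of 6 tested rose in wild-type and 5 of 6 in DN-CLIM skin. Their summed signal was 3113 to 3587 at P14 and 9336 to 10124 at P23 in wild-type skin, and 3174 to 4015 and 9170 to 9869 in DN-CLIM skin. Of 5 adipocyte markers 3 were tested, and 2 of the 3 were called higher in each genotype. In DN-CLIM skin 1 of the 3 was below 0, without a call. The summed adipocyte signal went from between 2823 and 3553 to between 10331 and 12701 in wild-type skin. In DN-CLIM skin it went from between 3441 and 3841 to between 8291 and 11671. The tested basal keratinocyte markers rose in 3 of 3 in both genotypes. The probe sets of Krt14, Krt5 and Krt15, which define basal keratinocytes, were too dim to test, and no T cell marker was bright enough. Other cell types moved too. Markers of differentiated epidermis were called higher in 5 of 6 in wild-type and 6 of 6 in DN-CLIM skin, and fibroblast markers in 4 of 5 in each. Of the endothelial markers tested, 2 of 4 and 3 of 4 were called higher. Erythroid and neutrophil markers had 1 of 2 called lower in each genotype. The part of these shifts in the changes of the early genes was not tested.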

How the data were processed

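Intensities, linear MAS5 signals with 1 value for each probe set on each array, are what the authors deposited. The MAS5 software is named in the submitters' processing notes, and its version was not given in the sources used here. Total RNA was obtained with TRIzol and RNeasy columns and given a biotin label by in vitro transcription, per the labels' protocols. The 2% trimmed mean was 500.2 to 500.3 on every array, so arrays had been scaled to 1 trimmed mean. After 66 controls were left out, 12422 probe sets remained. The annotation pairs 10833 of them with 1 gene, 396 with several and 1193 with none, and 10817 were matched by Entrez identifier to a RefSeq table on GRCm38.p6, with 0 symbols changed. Log2 signals were used without further normalization (array medians 7.56 to 7.80). The 6211 probe sets with a mean log2 signal of at least 7.67 (a signal of 203, the median over probe sets) were tested. No detection calls were used, and the number of arrays limits the precision.

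Groups and replicate numbers came from the array titles. limma 3.58.1 in R 4.3.3 was fitted with 1 mean per group over all 22 arrays, which share 1 estimate of the spread per probe set, and a trend with the mean signal. Calls had a Benjamini-Hochberg adjusted p under 0.05 over the 6211. The fit was tested on simulated data. The text names each probe set of the 10 genes. There were also lists of other early genes, AP-1 partners, MAP kinase and serum response factor genes and heat shock genes. From these the text names those past the threshold or with the smallest p. It also names the 5 genes most correlated with the mean of the 11. The members and lists were chosen with earlier results of these data known, and a list's count is a description. Alternatives were no filter, quantile normalization, 50 added to each signal, array weights, only the groups compared, the replicate number as a block, the P6 arrays numbered 1 to 3 and 4 to 5 as a batch, and leaving out each array.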

Additional observations from a re-analysis of the deposited data

Results flagged for a closer look

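The 15 probe sets were checked in both P6 groups, which have 5 arrays each, for 1 array that stood far from the others. Of 30 such checks 3 found one, and chance gives about 1 in 20. Egr1 on DN-CLIM P6 replicate 5 was at 9.51, below the other 4 arrays at 10.36 to 10.67. Ier2 on the same array was at 11.40, above the other 4 at 10.59 to 10.66. Jun on wild-type P6 replicate 3 was at 7.90, below the other 4 at 8.48 to 8.70.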

How the results depend on the processing

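Single probe sets were followed across the alternatives only in comparisons where their unadjusted p was under 0.05 in the main fit. None of these values changed direction under any alternative run. The direction of weaker differences, such as those of Fosb, was not followed. The calls of Dusp1, Fos, Junb, Egr1, Egr2 and Ier3 from P14 to P23 were kept in both genotypes whichever array was left out. Counts between P6 and P14 depended most on the settings. With only the groups compared in the fit they were 3 in DN-CLIM and 4 in wild-type skin, against 5 and 2. Leaving out 1 array gave 2 to 5 in DN-CLIM and 1 to 2 in wild-type skin, and 0 to 1 for the genotype comparison at P23 and over all ages, where the 1 was the Junb i_at set without DN-CLIM P23 replicate 1. It gave 9 to 10 (wild-type) and 7 to 9 (DN-CLIM) from P14 to P23, and 8 to 10 and 10 from P6 to P23. Each followed value of a single probe set was counted once per run. In runs that left out 1 array, values kept their direction and call 427 times, lost the call 24 times and gained it 3 times. Under the other settings these were 358, 8 and 4. Fos from P6 to P14 in DN-CLIM skin had an adjusted p of 0.144 with only the groups compared, and up to 0.128 when 1 array was left out.

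Same-numbered arrays of the genotypes correlated at -0.005 to 0.185 in their deviations at P6, -0.047 to 0.029 at P14 and 0.056 to 0.249 at P23, so the numbers were not taken to pair the arrays. With P6 arrays 1 to 3 and 4 to 5 as a batch, or within either set, 0 early genes were called between the genotypes at P6. With the replicate number as a block, the counts were 3 and 4 from P6 to P14 in wild-type and DN-CLIM skin, 9 and 8 from P14 to P23, 9 and 10 from P6 to P23, and 0 for the genotype comparisons. Dim probe sets are the noisiest, and the number of arrays limits what small differences can be seen.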

Other observations

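Among the 28 other early response genes, 7 rose and 3 fell from P6 to P14 in wild-type skin, and 6 rose and 3 fell in DN-CLIM skin. Of all tested probe sets 20.8% and 26.8% were called. The clock gene Per1 rose by 1.27 in wild-type and 1.21 in DN-CLIM skin (limma adjusted p = 0.00022 and 0.00034). Ccn2 rose by 1.12 and 0.58, Plk3 by 0.73 and 0.82, Cebpd by 0.67 and 0.71, Dusp2 by 0.47 and 0.54 and the antiproliferative gene Btg2 by 0.39 and 0.55. Gadd45a rose by 0.74 in wild-type skin. Dusp6 fell by 0.44 and 0.60 and the epidermal barrier factor Klf4 by 0.35 and 0.78. Id3, an inhibitor of helix-loop-helix factors, fell by 0.68 in wild-type skin, and Nfkbia, an inhibitor of NF-kappa B, fell by 0.74 in DN-CLIM skin.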
